A study of Schizosaccharomyces pombe with 9 samples.

Results

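Both nuclear basket mutants of fission yeast were set jointly against wild type. The 6 mutant libraries, 3 from each strain, formed one side, and each strain had equal weight. The 3 wild-type (WT) libraries formed the other side. Poly(A)+ RNA was measured as read counts for 6988 annotated features, of which 6227 had enough counts to be tested. A feature was placed outside the WT range when all 6 mutant libraries lay on the same side of the 3 WT libraries. Of the 6227 tested features 3336 (53.6%) did so.

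All strains were Schizosaccharomyces pombe of mating type h-, in vegetative log phase at 30 °C in YES, a rich medium. WT was strain Sp1. Strain ASY240 is given as rsm1∆::natMX, a replacement of rsm1 by a nourseothricin-resistance marker. Strain IAP105 carries the nup211-1435* allele together with an asp1-WT::kanMX locus, so an asp1 gene beside a geneticin-resistance marker. Each mutation was represented by 1 strain, and in these comparisons a marker's effect and a mutation's effect cannot be told apart. The counts of rsm1 neither show nor refute its deletion. The gene rsm1 had 37.1, 36.7 and 36.3 CPM in WT, 31.2, 33.2 and 30.98 under the rsm1 deletion label and 45.2, 43.6 and 43.5 in nup211-1435*. Of its 2575 annotated exon nt only 891 are coding, and 2510 have features on the opposite strand, tco89 and SPNCRNA.1204 among them; the part of reads from outside the coding stretch was not tested. That strain is therefore named by its label, and its libraries are called the rsm1-labelled libraries.

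The nuclear basket is a filamentous structure on the inner face of the nuclear pore complex, and it takes part in mRNA quality control, export and the positioning of chromatin at the pore. Nup211, like Alm1, is a fission yeast member of the Mlp/TPR family of long coiled-coil basket proteins. Rsm1 is annotated as a zinc finger RNA export factor. Several phosphate-responsive genes of this yeast lie downstream of long noncoding RNAs whose transcription interferes with them, so the level of such a gene depends on where transcription of the upstream RNA ends.

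Levels are CPM, counts relative to the library total, scaled by TMM, which sets libraries to a common scale from the features that change little. Fold changes are log2 values with a standard error (SE), for the average of both strains against WT unless a strain is named. A feature was called when its adjusted p in the edgeR quasi-likelihood test, over all 6227 features, was under 0.05. Depth was 20.98 to 28.11 M counts per library, so 3 counts, the floor used here for detection, amounted to 0.106 to 0.139 CPM. It covers counting error alone, as PCR copies carry no mark. The biological coefficient of variation was 3.95%, and replicates differed by more than sampling noise in every pair (chi-square per degree of freedom 2.8 to 11.9). The fit called 2274 features higher (36.5% of those tested) and 2188 lower (35.1%) in the mutants. The M mating type markers summed to 171 to 196 CPM in WT, 206 to 213 in the rsm1-labelled libraries and 136 to 139 in nup211-1435*, with 3 of the 7 tested called higher and 4 lower. The M marker mat1-Mc was at 0 counts in every library, and the P markers map1, map2, map3 and map4 stood at 5.25 to 43.5 CPM in single libraries. The P list's sum, 555 to 697 CPM, was mostly sxa1.

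Of the tested features, 1714 (27.5%) lay above the WT range in all 6 mutant libraries and 1622 (26.0%) below it. Most of these shifts were small. The features above had a median fold change of 0.40 and an upper quartile of 0.67. For those below, the values of the same rank were -0.37 and -0.58. The fit called 1704 of the features above and 1611 of those below, which is not separate evidence because the same libraries placed them. It called each strain on its own, with the same sign, for 1580 and 1499 of them; of all features 70.7% were called in the rsm1-labelled libraries and 64.9% in nup211-1435*. At least 2-fold changes in each strain were found for 143 features above and 87 below. Another 570 features called higher and 577 called lower overlapped the WT range in at least 1 mutant library. The features nearest the threshold showed how small a gap could be. The ATPase gene yta4 counted as above with WT at 52.6, 52.6 and 50.7 CPM and its lowest mutant libraries at 52.6 and 52.9, and it was not called (0.07, SE 0.04, adjusted p = 0.115). Under total counts yta4 was called (0.21, adjusted p = 0.000199). The amino acid permease gene per1 did not count, since nup211-1435* at 36.4, 36.4 and 36.4 CPM met the highest WT library at 36.4.

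The direction of small shifts depended on how libraries were scaled. Under TMM 51% of the calls were higher, and the median of all features was 0.01. With size factors by relative log expression the share was 49.8%, with upper-quartile scaling 37.6% (median -0.09), and with total counts 69.7% (median 0.15). Features above the range made up 51.4% of those outside under TMM, and 50%, 35.5% and 72.4% under the other scalings. The TMM factors were 0.934 to 0.943 in WT and 1.024 to 1.043 in the mutants, so the groups' count distributions differed in shape. Of the features outside the range, 1222 lay above and 987 below under all 4 scalings, a count added after the data had been seen. The features described next changed far more than these shifts of the median.

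The largest shared rises included gst2, osr1 and srx1 of the oxidative stress and glutathione list, caf5 of the drug efflux list and str1 of the iron list. The ranking used the smaller of the 2 strains' fold changes, and its first 12 higher features were 8 protein-coding genes, 1 pseudogene and 3 noncoding RNAs. Each was at least 2.24 (log2) higher in either strain. These features were chosen on the values shown, which are therefore a description.

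The glutathione S-transferase gene gst2, whose product conjugates glutathione to electrophiles, stood at 132, 136 and 146 CPM in WT. It reached 1234, 1184 and 1076 in the rsm1-labelled libraries and 2367, 2250.4 and 2267 in nup211-1435* (log2 fold change 3.57, SE 0.05, adjusted p = 4.7e-14). The groups were widely separated, and every nup211-1435* library exceeded every rsm1-labelled one. The adjoining dehydrogenase genes osr1 and SPCC663.08c had the same order of groups. The gene osr1 had 13.1, 14.5 and 15.5 CPM in WT, 113, 99.96 and 81.2 in the rsm1-labelled libraries and 279, 286 and 267 in nup211-1435* (3.52, SE 0.12). SPCC663.08c rose from 11.97 ± 1.28 CPM (SD, n = 3) to 90.7 ± 12.8 and 252 ± 0.889. A noncoding RNA on the opposite strand, SPNCRNA.1213, covers all 1130 nt of SPCC663.08c and had a fold change of -0.23.

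The sulfiredoxin gene srx1, whose product reactivates oxidised peroxiredoxin, had 3.42, 3.54 and 2.90 CPM in WT. It stood at 30.2, 27.3 and 20.04 in the rsm1-labelled libraries and 21.7, 18.9 and 18.02 in nup211-1435* (2.78, SE 0.16). The mutant libraries of both strains overlapped each other and lay far above WT. The flavin oxidoreductase gene SPBC23G7.10c behaved similarly, with 14.7 ± 0.583 CPM in WT, 114 ± 13.6 in the rsm1-labelled libraries and 99.6 ± 11.7 in nup211-1435* (SD, n = 3 each). The spermine family transporter gene caf5 had 36.5, 36.2 and 36.04 CPM in WT, 204, 187 and 147 in the rsm1-labelled libraries and 245, 228 and 206 in nup211-1435*. It shares 802 nt with the opposite-strand SPNCRNA.1585, which rose by 0.83. The pseudogene SPCC18B5.02c had the highest joint value of the 12 (4.05), with 11.5, 13.4 and 12.2 CPM in WT, 136, 124 and 108 in the rsm1-labelled libraries and 347, 341 and 331 in nup211-1435*. The RNA SPNCRNA.1153 covers it on the opposite strand over 1019 nt.

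The siderophore-iron transporter gene str1 belonged to another pathway, iron uptake. It had 20.98, 19.2 and 45.3 CPM in WT, 404, 414 and 327 in the rsm1-labelled libraries and 168, 179 and 174 in nup211-1435* (log2 fold change 3.17, SE 0.29, adjusted p = 7.21e-05). WT library 3 stood apart from the other WT libraries, and the mutants still lay above it. The But2 family gene SPAC27D7.09c had 7.07 ± 0.905, 38.5 ± 5.09 and 41.5 ± 8.10 CPM in WT, the rsm1-labelled libraries and nup211-1435*. The noncoding RNAs SPNCRNA.1179 (2.67), SPNCRNA.1023 (2.47) and SPNCRNA.1055 (2.31) completed the 12. SPNCRNA.1179 lies wholly opposite the coding gene atd3 (-0.38) and SPNCRNA.1023 wholly opposite rex3 (-0.18), and both coding genes lay below the WT range. The libraries were made with a kit that keeps strand, but whether counting used it is not given in the sources used here, and such values are uncertain.

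**Figure D1:**
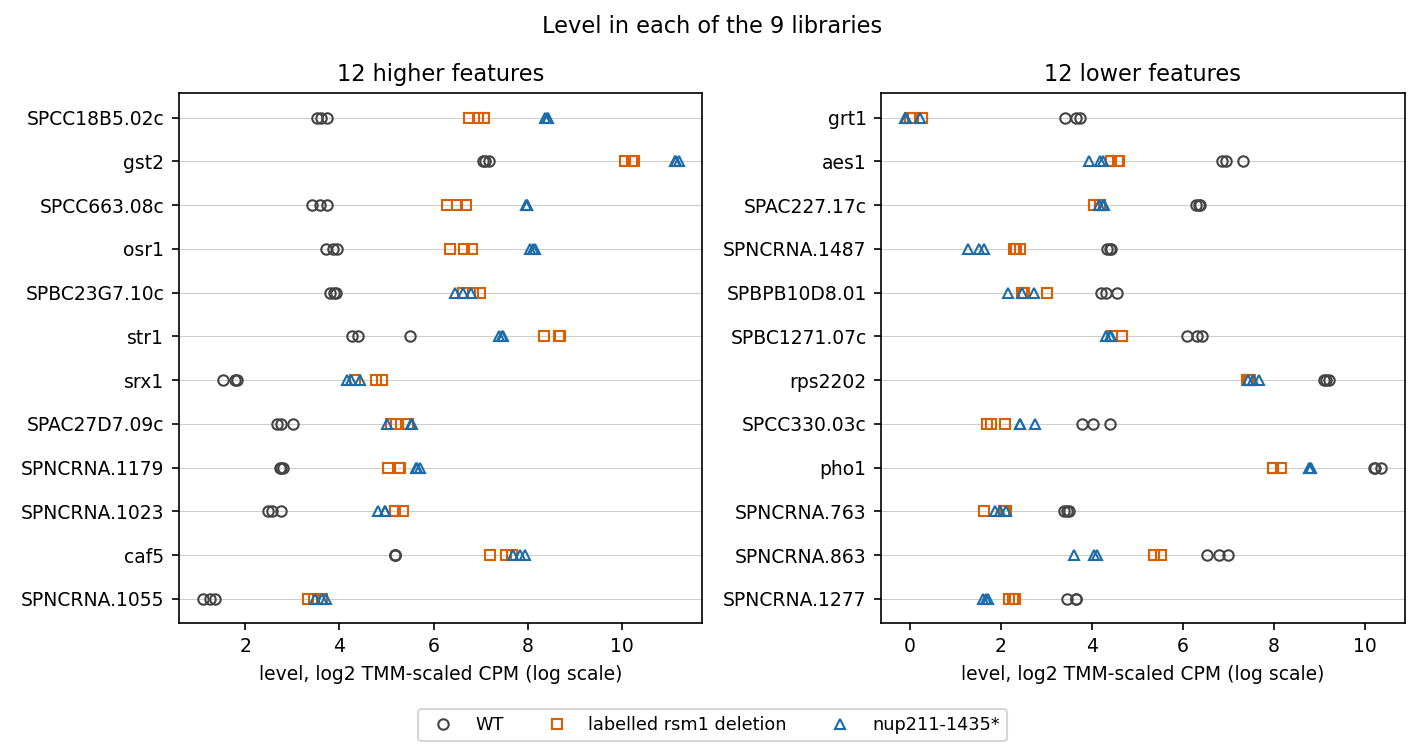
Level of the 12 higher and 12 lower features ranked by the smaller of the strains' fold changes, in log2 TMM-scaled CPM, with 1 symbol per library (3 per group). No mutant symbol crosses into the WT range, and the smallest gap to it is 1.89 for the higher and 1.02 for the lower features on the log2 scale.

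The 12 features ranked lower comprised 8 protein-coding genes and 4 noncoding RNAs, each at least 1.34 (log2) lower in either strain. The transcription factor gene grt1 fell most, from 10.7, 12.6 and 13.3 CPM in WT to 1.01, 1.06 and 1.21 in the rsm1-labelled libraries and 0.955, 0.934 and 1.17 in nup211-1435* (-3.53, SE 0.12). The strains overlapped each other at this low level, with a difference between them of -0.09 (SE 0.22). The neighbouring fah1 and SPNCRNA.1301, which overlap grt1 on the opposite strand over 1644 and 1072 nt, fell by 2.77 and 2.36 on the log2 scale.

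The phenazine biosynthesis family gene aes1 had 124, 161 and 117 CPM in WT, 23.8, 21.6 and 24.3 in the rsm1-labelled libraries and 15.4, 18.2 and 19.05 in nup211-1435* (-2.73, SE 0.11). The uncharacterized gene SPAC227.17c had 82.5, 78.7 and 83.5 CPM in WT, 16.5, 18.2 and 18.1 in the rsm1-labelled libraries and 19.1, 19.3 and 17.8 in nup211-1435*. For both genes the mutants lay far below WT. The mutant strains overlapped each other for SPAC227.17c but not for aes1, and for neither was a difference between them called: it was -0.40 (SE 0.16) for aes1 and 0.09 (SE 0.06) for SPAC227.17c. The cysteine transporter gene SPBPB10D8.01 (-1.80), the N-acetyltransferase gene SPBC1271.07c (-1.79) and the cytochrome b5 reductase gene SPCC330.03c (-1.87) fell less.

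The gene rps2202, for the small-subunit ribosomal protein uS8, was the only ribosomal protein gene among the 12. It stood at 596, 553 and 569 CPM in WT, 174, 171 and 179 in the rsm1-labelled libraries and 204, 187 and 173 in nup211-1435* (log2 fold change -1.66, SE 0.04, adjusted p = 4.24e-12). The mutant libraries of both strains overlapped each other far below WT. Its near-identical paralog could take part of its reads. The noncoding RNAs were SPNCRNA.1487 (-2.47), SPNCRNA.863 (-2.10), SPNCRNA.1277 (-1.63) and SPNCRNA.763 (-1.46). Of the coding genes opposite them, pep3 (opposite SPNCRNA.1277) rose by 0.64, mag2 (opposite SPNCRNA.1487) by 1.44 and sgt1 (opposite SPNCRNA.763) by 0.46, while dld1 (also opposite SPNCRNA.763, over 302 nt) fell by 0.40.

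Sharing a direction did not mean sharing a size. The contrast of nup211-1435* with the rsm1-labelled libraries was called for 50.2% of all tested features, and for 1641 (49.2%) of those outside the WT range, a share near the background. Among the features above, the change was larger in the rsm1-labelled libraries for 576 and larger in nup211-1435* for 287. Among those below, the numbers were 534 and 244. The strains differed by at least 2-fold for 29 features above and 23 below.

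Among the 12 higher features 9 differed between the strains. The rise was larger in nup211-1435* for 6 of them, with gst2 0.98 (SE 0.05) and osr1 1.498 (SE 0.10), and larger in the rsm1-labelled libraries for str1 (-1.14, SE 0.27), srx1 (-0.41, SE 0.13) and SPNCRNA.1023 (-0.32, SE 0.07). Among the 12 lower features 5 differed. The fall of SPNCRNA.863 was larger in nup211-1435* (-1.48, SE 0.17), and that of pho1 in the rsm1-labelled libraries (0.76, SE 0.05). The siderophore-iron transporter gene str3 had the widest difference among the 73 features named by rule: 0.295, 0.604 and 1.79 CPM in WT, 62.3, 64.4 and 35.99 in the rsm1-labelled libraries and 2.71, 2.49 and 3.57 in nup211-1435*. Its nup211-1435* libraries lay just above WT, and its joint rise of 3.77 was carried by the other strain.

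**Figure D2:**
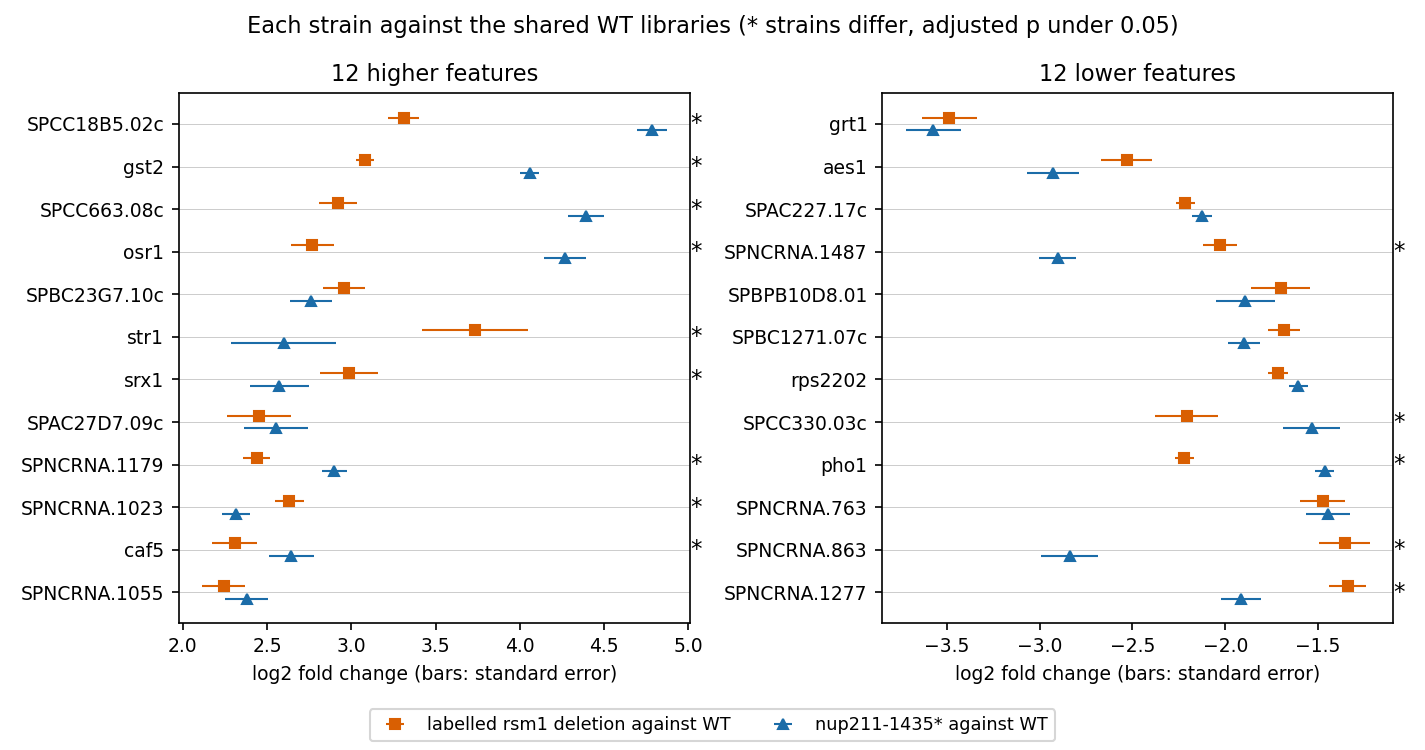
Log2 fold change of each strain against the same 3 WT libraries for the 24 ranked features, with bars of 1 standard error (3 libraries per group). Stars mark a called difference between the strains, present for 9 higher and 5 lower features; both estimates share the WT libraries, so their likeness is not a result.

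Averaging hid genes that moved in opposite directions. Of all tested features 165 were called in both strains with opposite signs, 105 of them higher in the rsm1-labelled libraries, and 5 changed at least 2-fold each way. The glucose transporter gene ght5 had 174, 337 and 215 CPM in WT, 606, 569.6 and 639.6 in the rsm1-labelled libraries and 82.5, 68.9 and 65.5 in nup211-1435*. WT libraries were spread for ght5, yet neither mutant group overlapped them, and the joint value was not called (-0.21, adjusted p = 0.402). The copper transporter genes ctr4 and ctr5 split the same way: ctr5 had 112 ± 26.2 CPM in WT, 236 ± 7.34 in the rsm1-labelled libraries and 55.1 ± 8.94 in nup211-1435* (SD, n = 3 each), with a joint value of 0.02. The meiosis regulator gene mei2 was called lower in the joint comparison (-0.69) although it rose by 0.52 in the rsm1-labelled libraries and fell by 1.91 in nup211-1435*. The heme-binding protein gene shu1 was called higher (2.16) with 6.05 (SE 0.23) and -1.74 (SE 0.65) in the strains. It had 0.591, 0.604 and 0.609 CPM in WT and 43.3, 45.9 and 31.1 in the rsm1-labelled libraries. In nup211-1435* it had 0.0398, 0.195 and 0.283 CPM, near the floor of 0.106 to 0.139, so the fall there is uncertain.

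The phosphate genes formed pairs in which the upstream RNA rose. The secreted acid phosphatase gene pho1 had 1194, 1306 and 1175 CPM in WT, 252, 252 and 285 in the rsm1-labelled libraries and 449, 438 and 445 in nup211-1435* (log2 fold change -1.84, SE 0.04, adjusted p = 1.35e-12). Its upstream RNA nc-pho1 had 3.97, 4.99 and 4.69 CPM in WT, 17.9, 20.5 and 16.6 in the rsm1-labelled libraries and 14.1, 12.5 and 16.05 in nup211-1435* (1.83, SE 0.11). Gene and RNA lay outside the WT range on opposite sides. In the reference annotation they share 1413 nt on the same strand, so reads of that stretch may be assigned to either or dropped.

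The phosphate transporter gene pho84 had 1560.2, 1513 and 1456 CPM in WT, 746, 744 and 804 in the rsm1-labelled libraries and 977, 901 and 886 in nup211-1435* (-0.85, SE 0.04). Its upstream RNA prt2 had 28.3, 27.2 and 25.3 CPM in WT, 132, 137 and 132 in the rsm1-labelled libraries and 65.96, 70.4 and 81.6 in nup211-1435* (1.87, SE 0.07). Both were again outside the range on opposite sides, and they share 1870 nt. The third pair differed. The RNA nc-tgp1 rose from 26.7 ± 1.15 CPM to 59.6 ± 0.496 and 60.4 ± 6.03 (SD, n = 3 each), and the glycerophosphodiester transporter gene tgp1 had 25.4, 22.5 and 24.6 CPM in WT, 23.7, 22.6 and 24.1 in the rsm1-labelled libraries and 21.96, 24.04 and 27.1 in nup211-1435*. All 3 groups overlapped for tgp1 (-0.01, SE 0.07, adjusted p = 0.853).

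**Figure D3:**
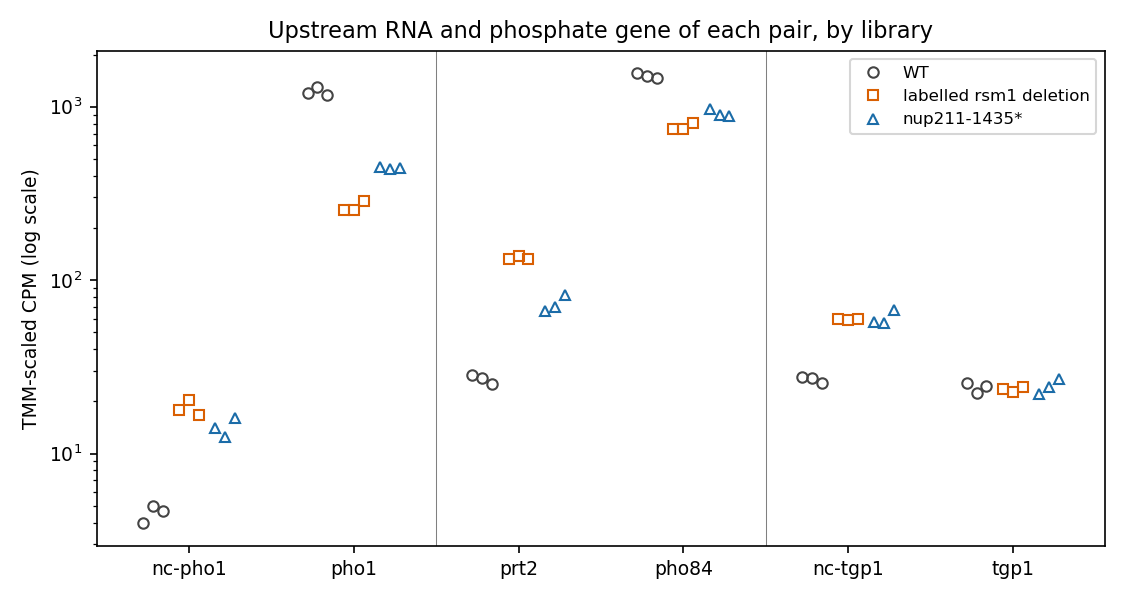
TMM-scaled CPM of each upstream noncoding RNA and its phosphate gene on a log axis, with 1 symbol per library (3 per group). In the pho1 and pho84 pairs the RNA lies above and the gene below the WT range in all 6 mutant libraries; in the tgp1 pair the RNA lies above and the gene overlaps WT.

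The same arrangement was looked for across the genome, among 290 pairs of a noncoding RNA that ends within 500 nt upstream of, or overlaps, a coding gene on the same strand. The RNA lay above the WT range in 49 pairs, and its gene below in 13 of them (26.5%). Where the RNA overlapped the range the gene lay below in 29.7% of pairs, and where the RNA lay below, in 27.3%. The reverse arrangement, RNA below and gene above, occurred in 22 of 66 pairs (33.3%), against 34.7% of genes above where the RNA was above and 25.7% where it overlapped the range. The arrangement seen for pho1 and pho84 therefore made up no larger a share than in the comparison pairs. Leaving out WT replicate 3 raised the 13 pairs to 21.

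Besides the phosphate genes, the 3 pairs with the largest opposite changes, among those whose RNA and gene both reached 10 CPM in a group, were as follows. SPNCRNA.1271 rose by 1.85 and fap7, a nucleoside-triphosphatase gene, fell by 0.30. SPNCRNA.1508 rose by 1.45 and the mitochondrial import gene tom5 fell by 0.47. SPNCRNA.698 fell by 0.83 and puf3, for a pumilio family RNA-binding protein, rose by 0.83, from 43.1 ± 3.16 CPM in WT to 95.7 ± 1.88 in the rsm1-labelled libraries and 61.3 ± 3.07 in nup211-1435* (SD, n = 3 each). Below that level, SPNCRNA.1156 fell by 2.09 and oca2 rose by 1.03, a pair named after its values were seen.

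Gene lists were described by their calls beside the 36.5% higher and 35.1% lower of all features. Genes of the translation machinery were lower. Of 138 cytosolic ribosomal protein genes 134 fell, none rose, and 127 lay below the WT range (26.0% of all features did). Their median was -0.39, with a median by library of -0.03 to 0.03 in WT, -0.45 to -0.40 in the rsm1-labelled libraries and -0.41 to -0.35 in nup211-1435*. Their summed level went from 230500 ± 4327 CPM in WT to 172200 ± 3465 in the rsm1-labelled libraries and 177300 ± 4169 in nup211-1435* (SD, n = 3 each). Examples were rps2202, rps1401 (uS11; -1.19, SE 0.03) and rpl801 (-0.65, SE 0.03, chosen after its value was seen). Paralog copies make single values uncertain, and rps1401 lies wholly opposite aar2 (-0.08). Under total counts 128 of the 138 were called lower and the median was -0.25.

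Of 24 translation factor genes 21 fell and 2 rose, with a median of -0.27, or 17 and 4 under total counts. The subunit gene of initiation factor eIF2, tif213, had 693, 711 and 703 CPM in WT, 434, 437 and 467 in the rsm1-labelled libraries and 489, 489.8 and 488 in nup211-1435* (-0.59, SE 0.03). The groups did not overlap. The elongation factor gene tef101, which has near-identical copies, fell by 0.53 (SE 0.05). Of 58 ribosome biogenesis genes, by contrast, 20 rose and 22 fell around a median of 0.04, whose sign changed with upper-quartile scaling (-0.05) and over the 9 refits that each left out 1 library (-0.02 to 0.11). Of these genes 14 were called higher and 26 lower under upper-quartile scaling, and 33 and 12 under total counts. The processome gene utp4 fell by 0.98 (SE 0.04), with a noncoding RNA opposite 2090 nt of it, and the rRNA processing gene enp2 rose by 0.57 (SE 0.09).

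Amino acid synthesis genes were lower in both strains. Of 50 tested, 37 fell and 6 rose (35 and 12 under total counts), and 37 lay below and 3 above the range, with a median of -0.42. The glutamate dehydrogenase gene gdh1, which assimilates ammonium, had 1219, 1218 and 1259 CPM in WT, 645, 638 and 708 in the rsm1-labelled libraries and 526, 521 and 523 in nup211-1435* (-1.06, SE 0.03). The mutant strains did not overlap WT or each other. The lysine pathway gene lys12 fell by 0.96 (SE 0.03), although SPNCRNA.870 covers 987 nt of it on the opposite strand and rose by 1.23. The fall covered several pathways: arg12 and arg3 of arginine (-0.90 and -0.85), leu1 of leucine (-0.85) and ilv5 of branched-chain synthesis (-0.74) all lay below the range, these 4 being chosen after their values were seen.

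Stress and detoxification lists leaned upward. Of 32 oxidative stress and glutathione genes 19 rose and 8 fell (median 0.26), or 23 and 4 under total counts. The split was 18 and 11 under upper-quartile scaling (median 0.17). By library the median was 0.06 to 0.15 in the rsm1-labelled libraries and 0.27 to 0.34 in nup211-1435*. Beyond gst2, osr1 and srx1 the rises were moderate, as for the transcription factor gene pap1, the AP-1-like regulator of this response (0.57), the catalase gene ctt1 (0.53) and gcs1 of glutathione synthesis (0.59), named after their values were seen. Of 34 genes of the Sty1-Atf1 stress pathway 26 rose and 3 fell (median 0.37), and 16 lay above the range. The list's median by library was 0.57 to 0.66 in the rsm1-labelled libraries and 0.15 to 0.17 in nup211-1435*, and 30 of the 34 differed between the strains. The transcription factor gene atf31 rose by 1.90 (SE 0.08). It lies within the span of rdh54 on the opposite strand, and exons of that strand cover 2130 of its 2432 exon nt. The pyridoxal reductase gene plr1 had 304, 281 and 296 CPM in WT, 889.7, 877 and 829 in the rsm1-labelled libraries and 1338, 1217 and 1159 in nup211-1435* (1.82, SE 0.05).

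Of 14 drug efflux transporter genes 9 rose and 5 fell, of which 7 and 1 lay outside the range. The list's median by library was 0.38 to 0.47 in the rsm1-labelled libraries and 0.11 to 0.17 in nup211-1435*. Under total counts 9 rose and 3 fell. The brefeldin A efflux pump gene bfr1 had 207, 203 and 215 CPM in WT, 625, 616 and 573 in the rsm1-labelled libraries and 1006, 986 and 1001 in nup211-1435* (1.90, SE 0.03). Every nup211-1435* library exceeded every rsm1-labelled one for bfr1, the reverse of the order of the list's medians. Of 16 adhesion and flocculation genes 12 rose and 3 fell (median 0.44). The transcription factor gene cbf12 rose by 1.73 (SE 0.06), while the cell surface glycoprotein gene pfl7 fell from 4.86 ± 0.455 CPM in WT to 1.26 ± 0.439 in the rsm1-labelled libraries and 0.502 ± 0.0870 in nup211-1435* (SD, n = 3 each).

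Iron and glucose genes were called in both directions. Of 28 iron and heme genes 13 rose and 9 fell, or 17 and 6 under total counts. The list's median by library was -0.023 to 0.032 in WT and 0.201 to 0.227 in the rsm1-labelled libraries. In nup211-1435* it overlapped WT, with a lowest value of -0.023. The strains differed for 21 of the 28 genes, against 50.2% of all tested features. The risen ones included the uptake genes str1, str3, fio1, a ferroxidase (2.53, SE 0.17), and fip1, an iron permease (2.20, SE 0.16), while heme synthesis genes such as hem14 (-0.47) and hem2 (-0.27) fell. The gene fio1 had 8.06, 7.32 and 12.1 CPM in WT, 71.1, 79.2 and 60.7 in the rsm1-labelled libraries and 35.4, 44.8 and 39.6 in nup211-1435*, with no overlap between groups; fio1, fip1, hem14 and hem2 were named after their values were seen. Of 35 glucose genes 15 rose and 17 fell, or 15 and 11 under total counts. Their median by library was -0.023 to 0.012 in WT, -0.019 to 0.195 in the rsm1-labelled libraries and -0.217 to -0.175 in nup211-1435*. For 29 of the 35 the strains differed. The glyceraldehyde 3-phosphate dehydrogenase gene gpd3 rose by 1.37 (SE 0.07) and cgs1, the regulatory subunit of protein kinase A, by 1.27 (SE 0.08), while glycolytic genes such as fba1 (-0.49) and eno101 (-0.45), chosen after their values were seen, fell.

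Genes of RNA processing and of the pore were called in both directions, with splits that moved with the scaling. Of 19 cleavage and polyadenylation factor genes 11 rose and 6 fell, led by mpe1 (0.51, SE 0.04) and cft1 (0.36, SE 0.03), with a median of 0.10. The split was 8 and 8 under upper-quartile scaling and 13 and 2 under total counts. Of 15 termination factor genes 4 rose and 6 fell, with the polymerase phosphatase gene rtr1 at 0.56 and din1, for an RNA 5′-end hydrolase, at -0.42. It was 2 and 8 under upper-quartile scaling and 7 and 2 under total counts. Among 25 genes of the exosome and of RNA elimination, 7 rose and 11 fell, with rrp6, for the nuclear exosome nuclease (0.41, SE 0.03), and the exosome-associated cti1 (-0.47, SE 0.03) as examples. Upper-quartile scaling gave 2 and 16 for the exosome list, and total counts 13 and 4. Its median of -0.03 was 0.11 under total counts, where the median of all features was 0.15.

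Of 33 nuclear pore genes 15 rose, all 15 above the WT range, and 8 fell. The basket gene alm1 had 214, 222 and 229 CPM in WT, 326, 319 and 279 in the rsm1-labelled libraries and 350.2, 338 and 331 in nup211-1435* (0.54, SE 0.05). The mutated gene nup211 itself rose, with 168, 189 and 183 CPM in WT, 259.7, 258 and 229.7 in the rsm1-labelled libraries and 276, 265 and 260.3 in nup211-1435*, though a noncoding RNA lies opposite 4984 nt of it. All mutant libraries lay above WT, and the difference between the strains was not called (0.10, SE 0.05). The nuclear envelope gene tts1 rose by 0.61 (SE 0.03). For the pore list as a whole the split followed the scaling, with 11 higher and 15 lower under upper-quartile scaling and 23 and 1 under total counts. The kinase gene asp1, marked with kanMX in nup211-1435* cells, rose by 0.19 in the rsm1-labelled libraries and by 0.60 in nup211-1435*. The noncoding RNA SPNCRNA.1144, with a joint value of 2.22, lies opposite 1070 nt of asp1, so these values are uncertain. Of 29 lipid and sterol genes 15 fell and 6 rose, with the sterol genes erg31 (-0.55, SE 0.07) and erg1 (-0.46, SE 0.09) lowest. Under total counts 6 fell and 14 rose. Of 18 pheromone and meiotic entry genes 7 rose and 7 fell (6 and 10 under upper-quartile scaling). Among them were mei3 at 1.94 (SE 0.27) and spk1, the mating MAP kinase gene, at -0.83 (SE 0.07). This joint split averaged strains whose list medians pointed in opposite directions. By library the median was -0.052 to 0.089 in WT, 0.185 to 0.348 in the rsm1-labelled libraries and -0.155 to -0.119 in nup211-1435*.

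**Figure D4:**
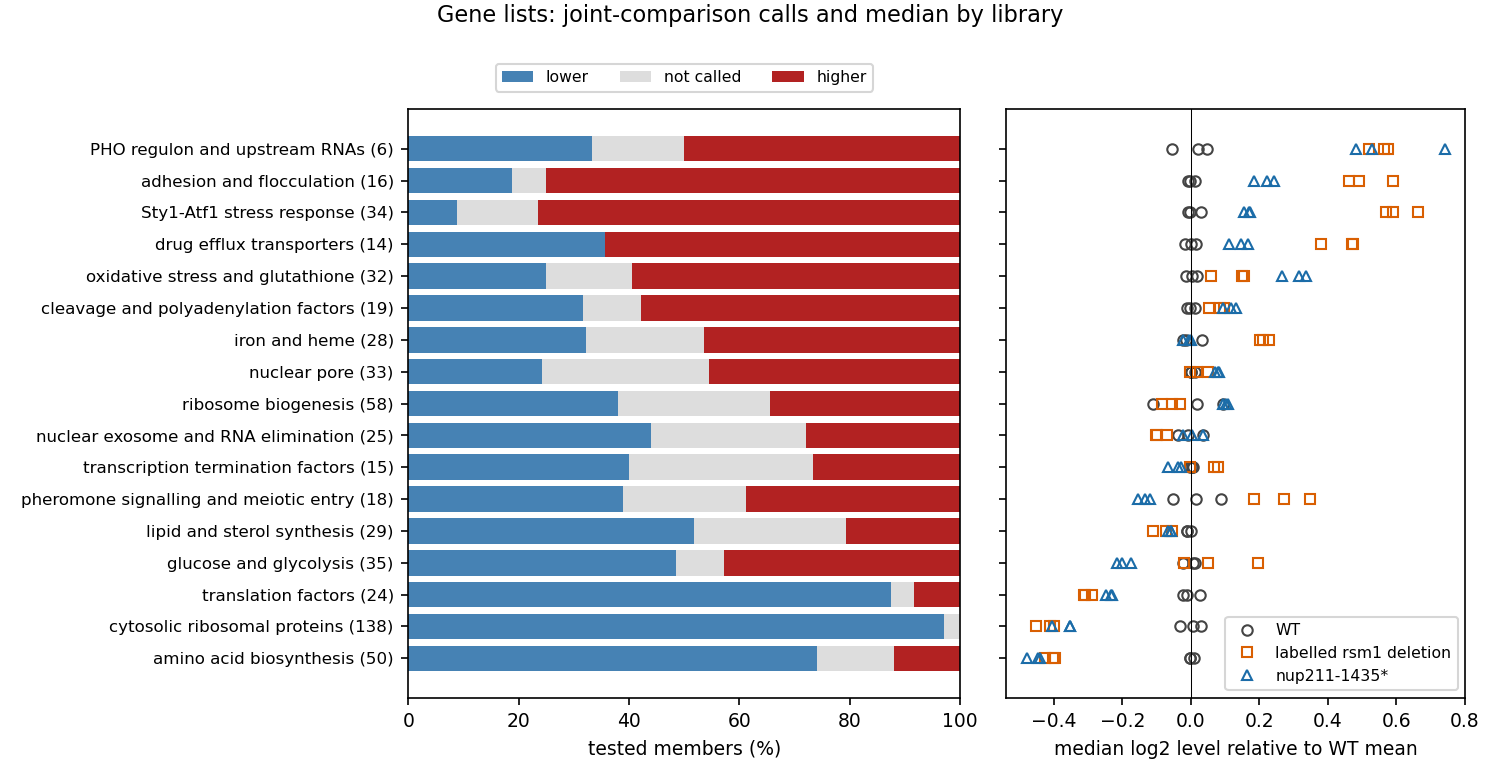
Left, share of the tested members of each of the 17 gene lists (number in brackets) called higher, lower or not called in the joint comparison; 36.5% of all features were called higher and 35.1% lower. Right, the list's median log2 level relative to the WT mean in each library: ribosomal protein, translation factor and amino acid synthesis genes sit at -0.23 or lower in all 6 mutant libraries.

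Annotated exon length, which played no part in choosing features, ordered the directions. Of 952 protein-coding genes under 1 kb, 11.2% lay above the WT range and 41.2% below. The shares were 23.2% and 31.9% among 2126 genes of 1 to 2 kb, and 41.8% and 16.4% among 1606 genes of 2 to 4 kb. Of 301 genes of 4 to 9 kb, 69.8% lay above and 4.98% below. Ribosomal protein genes are short, but without them 33.4% of the 824 remaining genes under 1 kb still lay below and 13.0% above.

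The order was present in every mutant library. The median of the 311 genes over 4 kb relative to WT was 0.32, 0.32 and 0.29 in the rsm1-labelled libraries and 0.32, 0.35 and 0.38 in nup211-1435*, against -0.01, -0.00 and 0.02 in the WT libraries. For genes under 1 kb it was -0.17, -0.20 and -0.17, and -0.11, -0.11 and -0.15. The difference between both classes was 0.42 to 0.53 in the mutant libraries and -0.03 to 0.03 in WT, and the median joint values differed by 0.52. Scaling moves both classes together: under total counts the median of short genes without ribosomal protein genes was 0.04 and that of genes over 4 kb 0.51.

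**Figure D5:**
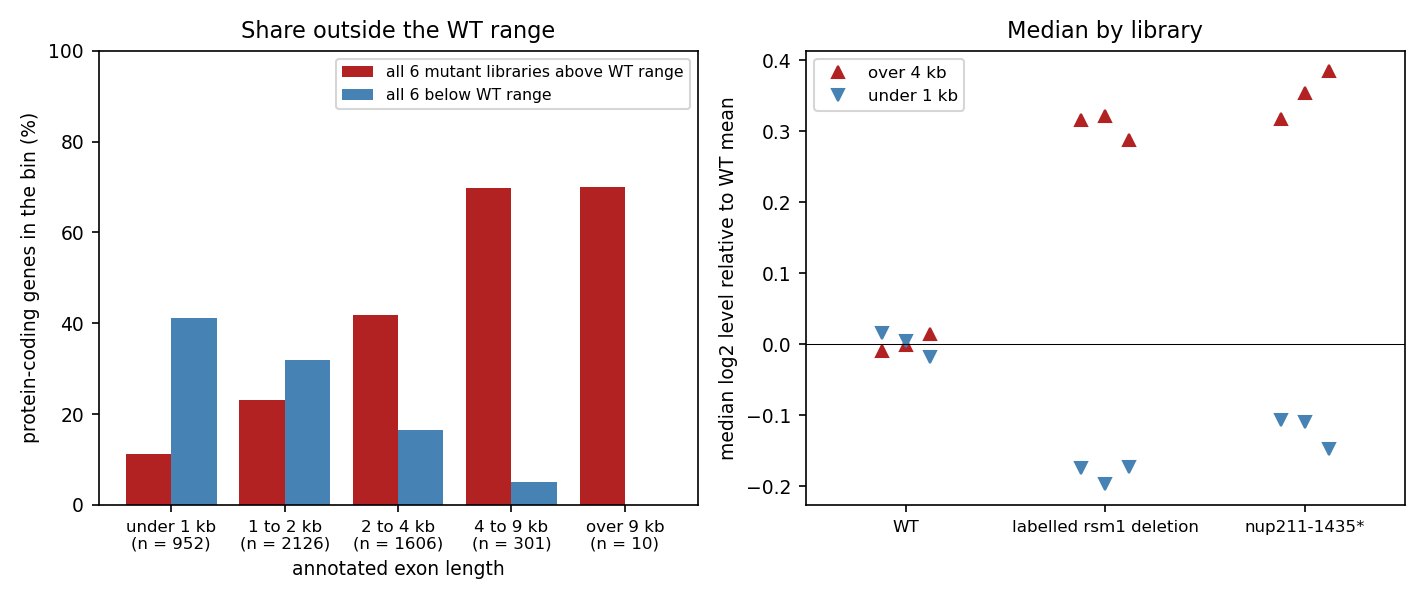
Left, share of protein-coding genes of each exon length class with all 6 mutant libraries above or below the WT range (bars start at 0). Right, median log2 level of genes over 4 kb (n = 311) and under 1 kb (n = 952) relative to the WT mean, 1 symbol per library; long genes lie at 0.29 to 0.38 and short genes at -0.20 to -0.11 in the mutant libraries.

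The 10 genes over 9 kb were all called higher, but unequally in the strains, with a median of 0.21 in the rsm1-labelled libraries and 1.43 in nup211-1435*. The lipid transfer protein gene vps1302 had 77.7, 76.8 and 76.8 CPM in WT, 131, 131 and 125 in the rsm1-labelled libraries and 277, 277 and 306 in nup211-1435*. By contrast mdn1, for the ribosome assembly ATPase midasin, had 312, 289 and 338 CPM in WT, 317, 322 and 286 in the rsm1-labelled libraries and 1034, 973 and 946 in nup211-1435*. Its rsm1-labelled libraries overlapped WT, as did those of tra2, while those of SPBPJ4664.02 lay below every WT library. These 3 genes were the ones of this length not counted as above. Noncoding RNAs showed a weaker order. Of 428 long noncoding RNAs under 1 kb 11.9% lay above and 23.6% below, and of 221 of 2 to 4 kb 29.0% and 24.0%.

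Abundant genes leaned downward as well. Of 189 coding genes with a mean of over 1000 CPM across the groups, 148 lay below the WT range and 6 above. Without ribosomal protein genes 60 of 97 lay below and 6 above, with a median of -0.27. Their median by library was -0.02 to 0.02 in WT, -0.30 to -0.26 in the rsm1-labelled libraries and -0.27 to -0.24 in nup211-1435*. Under total counts 49 of the 97 lay below and 13 above. Between 10 and 100 CPM 32.9% of coding genes lay above and 21.1% below. Level and length are not independent of each other, and their separate parts were not tested. Within 10 to 100 CPM, 68.1% of coding genes over 4 kb lay above and 2.13% below. Genes under 1 kb without ribosomal protein genes had 13.2% and 32.2% there. Within 100 to 1000 CPM the shares were 74.4% and 4.93% for the long genes, and 8.16% and 45.6% for the short ones. Over 1000 CPM only 8 genes were over 4 kb, with 1 above and 2 below.

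Classes are given beside the 27.5% above and 26.0% below of all features. Of 4995 protein-coding genes 1490 (29.8%) lay above and 1350 (27.0%) below the WT range. Of 1127 long noncoding RNAs 194 (17.2%) lay above and 259 (23.0%) below. Of 40 snoRNA features 12 (30.0%, near the share of all features) lay above and 5 (12.5%) below. Of 21 pseudogenes 10 (47.6%) lay above and 3 (14.3%) below. The selection of poly(A)+ RNA means that snoRNA values count only polyadenylated or carried-over molecules. Among the snoRNAs snR30 went from 50.1 CPM in WT to 119 in the rsm1-labelled libraries and 117 in nup211-1435*. The snoRNA snr79 went from 12.4 to 34.1 and 28.9 CPM, both snoRNAs being chosen after their values were seen.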

How the data were processed

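Poly(A)+ RNA from 9 libraries (3 strains, 3 biological replicates each, per the labels) was analysed from 1 deposited table of raw counts, whole numbers per feature that the authors did not normalize. The build was ASM294v2, and the tools listed were HTSeq 0.10.0, HISAT2 2.1.0, DESeq2 and SAMtools, per the submitters' processing notes. The strand setting of counting is not given in the sources used here. The authors' own fold-change tables were not used here.

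Features kept by filterByExpr (minimum count 10, minimum total 15) were fitted in R 4.3.3 with edgeR 4.0.16 (robust quasi-likelihood, TMM scaling, no covariate). The joint contrast was the mean of both mutant strains minus WT. P-values were two-sided and adjusted by Benjamini-Hochberg over 6227 features, and a feature was called under 0.05. The script was tested on simulated counts. Names, exon lengths and overlaps came from RefSeq's annotation of ASM294v3, matched by identifier for 6836 features and by synonym for 12; 140 had no match. No coordinates or sequences are given, since that build is not the authors'.

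Named features were the 12 higher and 12 lower with the largest smaller-of-both-strains change (at least 10 CPM in a group), the 2 called members of each list with the largest change, the PHO genes, the targeted genes, 5 tandem pairs and the features nearest the range threshold. The members and lists were chosen with earlier results of these data known. Alternatives were other scalings, filters, DESeq2 1.42.0, a 2-group model, a replicate block and leaving out each library. Libraries with the same replicate number did not all deviate together (correlations -0.13 to 0.23, against -0.24 to 0.15 between different numbers). The highest values were between the mutant strains, for number 1 (0.23) and number 3 (0.17), with -0.03 for number 2. The numbers were not taken to pair samples.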

Additional observations from a re-analysis of the deposited data

Results flagged for a closer look

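The log2 fold change differed between the strains, by the contrast of nup211-1435* with the rsm1-labelled libraries, for 39 of the 73 features named by rule. The same contrast was called for 50.2% of all tested features, so the count is near the background. Each value is nup211-1435* minus the rsm1-labelled libraries on the log2 scale, with an adjusted p under 0.05 in the edgeR quasi-likelihood test.

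Among features higher in both strains, the rise was larger in nup211-1435* for SPCC18B5.02c (1.47), gst2 (0.98), SPCC663.08c (1.47) and osr1 (1.498). It was also larger there for SPNCRNA.1179 (0.46), caf5 (0.33), bfr1 (0.72) and plr1 (0.52). The same order held for cft1 (0.17), tts1 (0.18), alm1 (0.14) and asp1 (0.42).

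The rise was larger in the rsm1-labelled libraries for str1 (-1.14), srx1 (-0.41), SPNCRNA.1023 (-0.32) and prt2 (-0.88). This also held for atf31 (-0.23), str3 (-4.21), gpd3 (-0.39) and cbf12 (-0.92). So it was for nc-pho1 (-0.37), SPNCRNA.1508 (-0.95) and puf3 (-0.64). For str3 the rise in nup211-1435* (1.67, SE 0.71) was not called on its own.

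Among features lower in both strains, the fall was larger in nup211-1435* for SPNCRNA.1487 (-0.87), SPNCRNA.863 (-1.48), SPNCRNA.1277 (-0.58) and tef101 (-0.33). A larger fall there was also found for gdh1 (-0.34), lys12 (-0.38), erg31 (-0.35) and spk1 (-0.88). The list ended with pfl7 (-1.32). It was larger in the rsm1-labelled libraries for SPCC330.03c (0.67), pho1 (0.76), utp4 (0.27) and tif213 (0.13). Smaller falls in nup211-1435* were also found for pho84 (0.27) and fap7 (0.33). The strains pointed in opposite directions for rsm1 (0.47), lower in the rsm1-labelled libraries and higher in nup211-1435*.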

How the results depend on the processing

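Under total counts 1396 features were called lower, 2584 lay above the WT range and 987 below, and the same 1396 and 987 remained when all 4 scalings had to place a feature on that side. With a mean of at least 10 CPM, 79 features above and 16 below changed at least 2-fold in each strain, against 143 and 87 in the main fit. Of the 9 libraries in that mean 6 are mutant, so fallen features have a lower mean than in WT. Features low in every group are removed too, and the parts of these in the smaller counts were not tested. With this filter, the pairs of opposite direction numbered 5 (RNA above) and 7 (RNA below). Leaving out 1 library at a time gave 13 to 21 pairs with the RNA above and its gene below, and the 21 came without WT replicate 3. The replicate block gave 2272 features higher and 2185 lower, and the block changed no count by over 1.5 times. The replicate numbers were not taken to pair the libraries. DESeq2 called 2164 higher and 2166 lower. The 2-group model, which adds the difference between the strains to the spread, called 1808 and 1679. A gap of at least 0.1 (log2) to the WT range left 1177 features above and 1141 below. The difference between genes over 4 kb and under 1 kb stayed between 0.51 and 0.54 in every setting run. Of the named features, tgp1, which was never called, turned positive under total counts (0.12), and ranged from -0.064 to 0.022 over the refits that each left out 1 library. Under upper-quartile scaling rsm1 stood at -0.066 and yta4 at -0.026, and under total counts both were called (0.17 and 0.21). The cause was not tested. Depth limited features near 1 CPM, where 3 counts are 0.106 to 0.139 CPM.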

Other observations

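Runs of neighbouring coding genes that moved together by 2-fold or more were short, and their number was not set against an expected one. The longest run of neighbours that all lay outside the WT range on the same side, with joint changes of at least 2-fold, held 3 genes: SPBPB8B6.02c, grt1 and fah1 on chromosome II, with joint log2 values of -3.53 to -2.77. Runs of 2 included fip1 and fio1 (2.20 to 2.53), osr1 and SPCC663.08c (3.52 to 3.66), bfr1 and wee1 (1.10 to 1.90), and SPAC1142.09 and cgs1 (1.27 to 1.56), all higher. The lower runs of 2 were SPBPB10D8.01 with SPBPB10D8.02c, and adh4 with SPAC5H10.07.

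Among the 30 tested coding genes nearest each chromosome end, those at the start of chromosome II stood lowest, with 16 below the WT range, 2 above and a median of -0.39. At the other ends the median lay between -0.10 and 0.15, and 6 to 8 genes lay below.

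The M-factor pheromone precursor gene mfm2 had 47.1, 51.4 and 36.8 CPM in WT, 16.9, 19.0 and 17.4 in the rsm1-labelled libraries and 9.87, 9.38 and 9.15 in nup211-1435* (log2 fold change -1.79, adjusted p = 5.33e-09). The groups did not overlap. The other M-factor precursor genes went both ways at low levels. From a WT mean of 0.759 CPM mfm1 fell by 1.46, and from 0.823 CPM mfm3 rose by 0.87. The M-cell agglutinin gene mam3 (0.51) and the M marker sxa2 (0.55) were higher, and the M marker mam2 was lower (-0.52). The M-factor transporter gene mam1 had a joint value of -0.18 but pointed in opposite directions in the strains. It stood at 70.5, 74.8 and 66.6 CPM in WT, 81.5, 83.0 and 76.6 in the rsm1-labelled libraries and 50.2, 45.9 and 48.4 in nup211-1435*.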
